A study of Homo sapiens with 12 samples.

Results

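The genes described here encode 52 proteins of the splicing machinery: subunits of the U4/U6.U5 tri-snRNP, members of the PRP19 complex and proteins that travel with it, spliceosomal cyclophilins, the DEAH-box helicases that remodel the spliceosome, and factors of the exon junction complex. They were taken by gene symbol from a list, and all 52 were found among the 60106 genes of the deposited tables. By assembly, 13 belonged to the tri-snRNP, 4 were associated with the U1, U2 or U12 snRNP, 13 belonged to the PRP19 complex or were related to it, 6 were cyclophilins, 6 were DEAH helicases or factors of the second catalytic step, and 10 were exon junction factors. RNA was measured in 12 libraries of PC3 and VCaP, established human prostate cancer cell lines grown in culture. Each line received a non-targeting siRNA (NSI) or an siRNA against FOXA1 (siFOXA1) with the RNAiMax reagent and was collected after 72 h, with 3 libraries per group. PC3 received 20 nM siRNA in RPMI medium, and its libraries were made from polyadenylated RNA and counted without regard to strand. VCaP received 40 nM siRNA in DMEM, and its libraries were made from total RNA and counted by strand. The line, the dose, the medium, the kit and the use of strand therefore cannot be told apart. All cells, controls included, were transfected. No label says that the 3 libraries of a group came from separate cultures, so the p-values measure only the spread between these libraries.

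The spliceosome removes introns in steps that are each gated by proteins. The tri-snRNP brings the U4, U5 and U6 RNAs to the pre-mRNA, the PRP19 complex stabilises the catalytic RNA core after U4 has left, and DEAH-box helicases drive the rearrangements that follow. Cyclophilins are prolyl isomerases that sit on the surface of these assemblies, and the exon junction complex is left on the spliced mRNA just upstream of each junction. FOXA1 is a forkhead transcription factor that opens chromatin in prostate epithelium. The study asked how FOXA1 bears on the expression of splicing factors.

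FOXA1 itself, the target of the siRNA, was lower in every siFOXA1 library of both lines. In PC3 it fell from 271 ± 30.0 to 169 ± 11.4 CPM (counts scaled to a common library size with TMM factors, mean ± SD, n = 3), to 62.3% of NSI (log2 fold change −0.68, SE 0.10, adjusted p = 0.0022). VCaP showed a deeper loss, from 489.7 ± 47.0 to 80.6 ± 6.19 CPM or 16.5% of NSI (log2 fold change −2.60, SE 0.09, adjusted p = 1.84e-07). The two-sided exact permutation p was 0.1 for PC3 as for VCaP, which is the least that this number of libraries can give. Library totals were between 123140099 and 188226483 counts for PC3, against 48187047 to 59839211 for VCaP. Replicate 2 of both PC3 groups stood apart from its group. Mitochondrial genes held 3.02% to 3.29% of counts in VCaP NSI and 4.04% to 4.69% in VCaP siFOXA1. Of 17 cell-cycle genes, 11 were called lower in PC3 (13.9% of all genes tested) and 17 in VCaP (23.3% of all genes tested). Of 15 interferon-response genes, 15 were called higher in PC3 (13.9% of all genes tested). Of 13 tested in VCaP, 8 were called higher (22.5% of all genes tested) and 2 lower (23.3%). The part of these differences in the results below was not tested. The prostate markers KLK3 and TMPRSS2 were above 1 CPM in both VCaP groups and below it in both PC3 groups. The summed markers of other cell types were low and differed between NSI and siFOXA1. The 6 leukocyte markers summed to 0.548 to 0.671 CPM in PC3 NSI, 1.21 to 1.31 in PC3 siFOXA1, 0.921 to 1.31 in VCaP NSI and 2.45 to 3.22 in VCaP siFOXA1. The 6 fibroblast markers summed to 24.7 to 29.0 CPM in PC3 NSI, 44.0 to 49.1 in PC3 siFOXA1, 11.0 to 20.4 in VCaP NSI and 1.57 to 7.55 in VCaP siFOXA1. The 3 endothelial markers, in the same order, summed to 24.0 to 33.6, 20.8 to 25.6, 4.03 to 4.70 and 1.77 to 2.12 CPM. The part of these shifts in the results was not tested.

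In PC3, 12 of the 52 genes were called lower in siFOXA1 than in NSI and 1, RNPC3, was called higher, at an adjusted p under 0.05 in edgeR's quasi-likelihood test. Over all 26478 genes tested, 13.9% were called lower and 13.9% higher. The members' shares were 23.1% lower and 1.92% higher. Since these genes are all well expressed, a closer background is the 11576 genes at or above the mean CPM of the lowest member. Of these, 20.9% were called lower and 11.9% higher. In this fit, which had no block for the replicate number, the share of lower calls lay near that background and the share of higher calls below it. The median log2 fold change was −0.17 over the members and −0.014 over all genes tested, and 47 of the 52 values were negative. In 23 members the highest siFOXA1 library stayed under the lowest NSI library (22.7% of all genes tested), RNPC3 showed the reverse (22.4%), and the groups overlapped for 28. Each siFOXA1 library showed the same lean: 48, 43 and 44 of the 52 genes lay below the NSI mean in replicates 1, 2 and 3, with medians of −0.19, −0.13 and −0.21. All 3 counts are set against the same NSI mean, and the share of all genes below it was not computed. With library size alone the members' median log2 fold change was −0.081. In bulk RNA, fewer cells of a kind and less RNA per cell cannot be told apart.

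The number of PC3 calls moved with the libraries and the design, while no called gene turned its sign in any of 14 alternatives. Without siFOXA1 replicate 1, RNPS1 was the only member still called lower, and without NSI replicate 1, NSI replicate 3 or siFOXA1 replicate 3 the lower calls were 6, 5 and 5. Scaling by library size alone left 6. Same-numbered PC3 libraries deviated together from their group means. With the replicate number as a block, 25 of the 52 members were called lower and RNPC3 was still the only member called higher. Of all genes in that fit, 23.1% were called lower and 19.7% higher, so the members' share of lower calls lay above that of all genes. A background at the members' level was not computed for that fit. The 25 held the same 12 genes and 13 more: PRPF3, PRPF4, PRPF31, PPIH, USP39, PRPF38A, PRPF19, CRNKL1, AQR, PPIE, SLU7, RBM8A and EIF4A3. Opposite-strand genes overlap 37.7% of the PRPF31 exon length and 20.3% of that of RBM8A. In the strandless PC3 counts, without the block, the PRPF31 partners AC012314.8 and TFPT had log2 fold changes of −0.28 and 0.0089. The RBM8A partners RP11-315I20.1 and GNRHR2 had −0.20 and 0.21. None of these partners was called, and reads of each pair cannot be told apart there. Without replicate 2 of both groups, an alternative added after the data were seen, 20 were called lower. RNPS1 and RNPC3 were called in all 14 alternatives.

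In VCaP, where FOXA1 fell further, 15 of the 52 genes were called lower and 7 higher. The background was 23.3% lower and 22.5% higher among the 22939 genes in the fit, and among the 13161 genes at or above the lowest member's mean CPM 31.8% and 24.0%. Of the members, 28.8% were called lower, near that background, and 13.5% higher, below it. The median log2 fold change was −0.05 over the members and 0.02 over all genes, with 32 of 52 values negative. For 19 members no siFOXA1 library reached the lowest NSI library (28.0% of all genes tested), for 9 each was above the highest (27.9%), and for 24 the groups overlapped. The number of lower calls was the steadier one, at 10 to 16 over 13 alternatives. Of the 22 called genes, 10 were called in all of them. These were RNPC3, called higher, and PPIH, DDX23, SART3, PLRG1, PPIL1, PPIE, DHX15, RBM8A and EIF4A3, called lower. The other lower calls, SART1 and CWC15 among them, were lost in some alternatives. The higher calls ranged from 1 to 8, with 14 lower and 1 higher when scaled by library size alone and 14 lower and 2 higher by DESeq2. Leaving out 1 library left 2, 4 or 1 higher calls without NSI replicate 1, 2 or 3 and 2, 1 or 5 without siFOXA1 replicate 1, 2 or 3, and no called gene turned its sign.

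**Figure D1:**
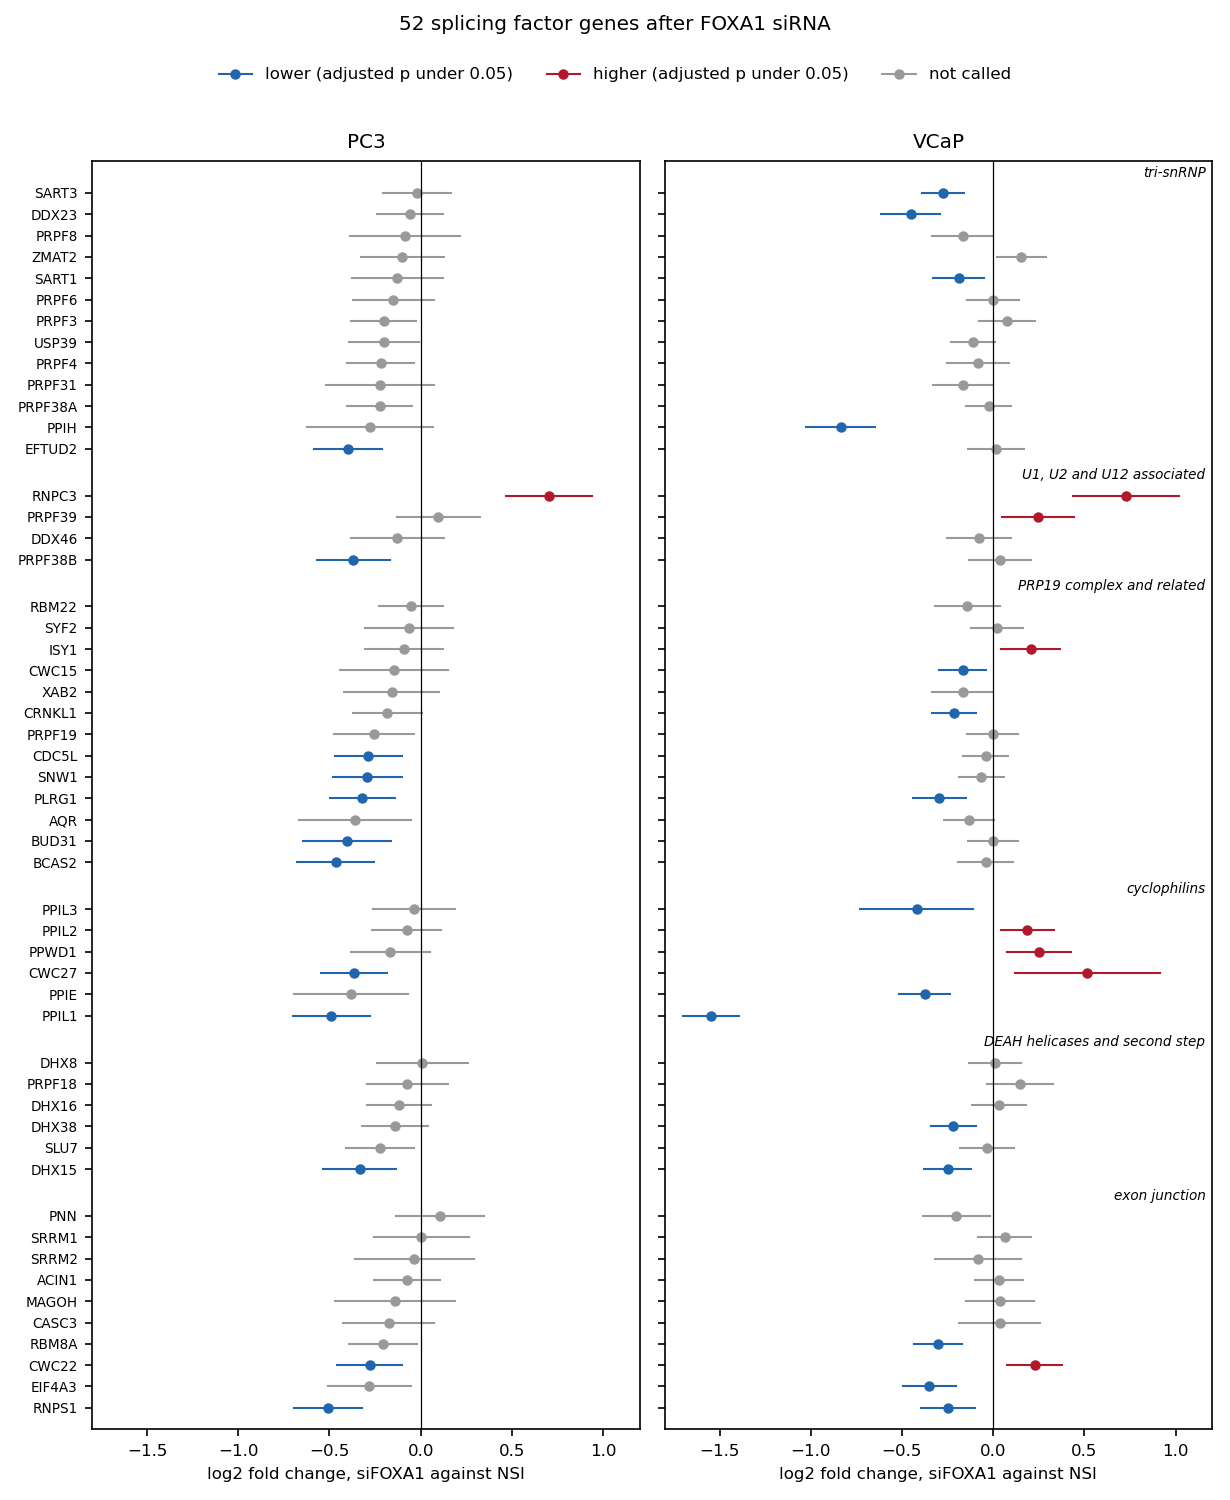
Log2 fold change of the 52 genes, siFOXA1 against NSI, in PC3 (left) and VCaP (right), grouped by assembly and ordered within each by the PC3 value; points are edgeR estimates from 3 against 3 libraries, bars are 95% confidence intervals, and blue and red mark genes called lower and higher. In PC3 the points lean left of 0, with RNPC3 at 0.70 to the right, while in VCaP PPIL1 at −1.55 and PPIH at −0.84 stand far from the rest and the cyclophilins lie on both sides.

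Of the 13 tri-snRNP genes, 1 was called lower in PC3 (EFTUD2; 7.69%, against 13.9% of all genes tested) and 4 in VCaP (PPIH, DDX23, SART1 and SART3; 30.8%, against 23.3%, or 31.8% at or above the lowest member's level), and none was called higher. These shares, from the fits without the replicate block, were below the background in PC3 and near it in VCaP. With the replicate block 7 of 13 were called lower in PC3 (EFTUD2, PRPF3, PRPF4, PRPF31, PPIH, USP39 and PRPF38A), against 23.1% of all genes in that fit. ZMAT2, which enters the spliceosome with the tri-snRNP, had all 3 VCaP siFOXA1 libraries above NSI but an adjusted p of 0.0568. All 13 values were negative in PC3 and 10 in VCaP, and the medians were −0.20 and −0.11. PRPF8, the scaffold that holds the catalytic RNAs in the U5 snRNP (ENSG00000174231.16_3, chromosome 17, 1553923 to 1588176, minus strand, GRCh37), read 263, 202 and 245 CPM in PC3 NSI and 234, 188 and 245 in siFOXA1 (log2 fold change −0.09, SE 0.13, adjusted p = 0.66). Its PC3 groups overlapped, and replicate 2 was the low library of each group. The VCaP libraries of PRPF8 read 605, 594 and 628 CPM in NSI and 521, 520.3 and 585 in siFOXA1 (log2 fold change −0.17, SE 0.07, adjusted p = 0.0963). Here the groups did not overlap, yet the difference did not pass the threshold except without siFOXA1 replicate 3 (adjusted p = 0.0335).

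EFTUD2, the GTPase that sits beside PRPF8 in U5 (ENSG00000108883.12_2, chromosome 17, 42927311 to 42977030, minus strand), read 149.5, 149 and 145 CPM in the PC3 controls and 113, 105 and 118 after siFOXA1. It fell to 75.9% of NSI (log2 fold change −0.40, SE 0.08, adjusted p = 0.00831), with a wide gap between the groups. The call was lost without siFOXA1 replicate 1 (log2 fold change −0.37, adjusted p = 0.0581). VCaP gave 108, 104 and 119 CPM for EFTUD2 in NSI and 108, 113 and 114 in siFOXA1, overlapping groups with a log2 fold change of 0.02 (95% confidence interval −0.14 to 0.17). DDX23, the DEAD-box helicase that hands the 5′ splice site from U1 to U6 (ENSG00000174243.9_3, chromosome 12, 49223547 to 49245946, minus strand), showed the opposite pattern. Its PC3 libraries read 81.5, 87.1 and 82.8 CPM in NSI and 78.4, 79.1 and 84.0 in siFOXA1, which overlap (log2 fold change −0.06, SE 0.08, adjusted p = 0.621). Its VCaP libraries read 140.2, 129.9 and 140.1 and 106, 102 and 91.6 CPM, a fall to 73.1% of NSI (log2 fold change −0.45, SE 0.07, adjusted p = 0.000754) with every siFOXA1 library below every NSI library.

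PPIH, the cyclophilin that binds PRPF3 and PRPF4 on the U4/U6 snRNP (ENSG00000171960.10_3, chromosome 1, 43124096 to 43142429, plus strand), had the largest tri-snRNP change. In VCaP it read 16.7, 16.6 and 18.0 CPM in NSI against 10.5, 8.95 and 9.27 in siFOXA1, a fall to 56.0% (log2 fold change −0.84, SE 0.08, adjusted p = 4.45e-05), and the siFOXA1 libraries lay far below the controls. In PC3 it read 19.3, 28.1 and 22.4 and 17.7, 22.2 and 17.9 CPM. Within each PC3 group replicate 2 was the high library, so the groups overlapped (log2 fold change −0.28, SE 0.15, adjusted p = 0.208). With the replicate block the PC3 difference passed (log2 fold change −0.27, adjusted p = 0.0134). The other VCaP calls were small: SART3, which recycles U4/U6, fell to 82.7% of NSI (log2 fold change −0.27, SE 0.05, adjusted p = 0.00186). SART1, a tri-snRNP-specific protein, fell to 87.7% (log2 fold change −0.19, SE 0.06, adjusted p = 0.0333) and was called in 7 of 13 alternatives. PRPF3, PRPF4 and PRPF31 (U4/U6), PRPF6 (U5), and USP39, ZMAT2 and PRPF38A (recruited with the tri-snRNP) were called in neither line without the block, with log2 fold changes between −0.22 and −0.10 in PC3 and between −0.17 and 0.16 in VCaP. The promoter of PPIH is shown because its VCaP fall was the second of the list in size. It is the RefSeq window of 300 bases (GRCh38.p14, chr1:42658173-42658472, plus strand), from 250 bases before the start to 50 after, written 5′ to 3′ with an E-box, CACGTG, in capitals:
PPIH promoter: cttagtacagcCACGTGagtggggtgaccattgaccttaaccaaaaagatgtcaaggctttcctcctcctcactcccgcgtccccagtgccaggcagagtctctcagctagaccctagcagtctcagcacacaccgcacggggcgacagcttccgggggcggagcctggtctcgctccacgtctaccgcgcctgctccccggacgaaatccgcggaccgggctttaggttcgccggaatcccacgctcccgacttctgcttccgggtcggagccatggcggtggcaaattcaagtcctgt

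Among the 4 proteins tied to the U1, U2 and U12 snRNPs, RNPC3 rose in both lines and was the only 1 of the 52 genes called higher in both, against 4.57% of the 19282 genes tested in both. RNPC3 encodes the 65K protein of the U11/U12 di-snRNP, which serves the minor class of introns (ENSG00000185946.15_3, chromosome 1, 104068313 to 104097861, plus strand). Its PC3 libraries read 10.7, 9.91 and 11.0 CPM in NSI and 16.3, 19.2 and 16.1 in siFOXA1, 163% of NSI (log2 fold change 0.70, SE 0.10, adjusted p = 0.00177). Its VCaP libraries read 7.22, 8.37 and 5.72 CPM in NSI and 12.0, 12.2 and 11.1 in siFOXA1, 165% of NSI (log2 fold change 0.73, SE 0.13, adjusted p = 0.00148). In both lines every siFOXA1 library lay above every NSI library, and the call held in all alternatives, 14 in PC3 and 13 in VCaP. The estimated difference between its VCaP and PC3 effects was 0.01 (SE 0.17, adjusted p = 1), with a 95% confidence interval of −0.34 to 0.36. On the same strand 10.5% of the RNPC3 exon length overlaps AMY2B, between whose reads and its own the counting divides shared fragments; AMY2B read 3.04 CPM in PC3 NSI (log2 fold change 0.42, adjusted p = 0.0692) and 0.298 in VCaP NSI (0.96, adjusted p = 0.0247). The RNPC3 window (chr1:103525449-103525748, plus strand, GRCh38.p14) is shown as the promoter of the gene that rose in both lines. It is 80% G and C, the highest share among the members, holds a tandem repeat, and none of the motifs searched was found in it:
RNPC3 promoter: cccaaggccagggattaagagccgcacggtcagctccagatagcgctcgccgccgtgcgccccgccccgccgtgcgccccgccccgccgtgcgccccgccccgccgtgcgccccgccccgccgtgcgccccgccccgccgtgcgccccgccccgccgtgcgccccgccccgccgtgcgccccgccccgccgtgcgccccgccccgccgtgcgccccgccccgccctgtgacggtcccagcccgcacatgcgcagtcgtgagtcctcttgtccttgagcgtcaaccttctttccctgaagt

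PRPF38B, a relative of PRPF38A (ENSG00000134186.11_2, chromosome 1, 109234945 to 109244425, plus strand), went down in PC3. It read 109.8, 93.6 and 102 CPM in NSI and 77.8, 81.8 and 76.7 in siFOXA1, 77.5% of NSI (log2 fold change −0.37, SE 0.09, adjusted p = 0.0162), without overlap. The call was lost without NSI replicate 1 or 3 or siFOXA1 replicate 1 or 3 (adjusted p = 0.0591 to 0.0885). In VCaP its groups overlapped, at 43.5, 49.0 and 40.9 CPM in NSI and 46.7, 47.2 and 42.9 in siFOXA1 (log2 fold change 0.04, SE 0.08, adjusted p = 0.73). PRPF39, a U1-associated protein (ENSG00000185246.17_3, chromosome 14, 45553302 to 45584804, plus strand), was called higher in VCaP alone. Its VCaP libraries read 43.5, 45.1 and 36.9 CPM in NSI and 53.4, 49.6 and 45.5 in siFOXA1 (log2 fold change 0.25, SE 0.09, adjusted p = 0.0459). The gap was narrow: the lowest siFOXA1 library stood just above the highest NSI library, and the call held in 5 of 13 alternatives and in no fit without NSI replicate 1 or 3 or siFOXA1 replicate 1 or 2 (adjusted p = 0.0869 to 0.182). The PC3 libraries of PRPF39 read 43.7, 35.9 and 39.6 CPM in NSI and 44.1, 44.1 and 39.4 in siFOXA1, and overlapped. DDX46, the helicase that acts on U2 at the branch point, was called in neither line (−0.13 and −0.08).

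In the PRP19 group 5 of 13 genes were called lower in PC3, BCAS2, BUD31, PLRG1, SNW1 and CDC5L (38.5%, against 13.9% of all genes tested and 20.9% of those at or above the lowest member's level). With the replicate block PRPF19, CRNKL1 and AQR joined them, 8 of 13, against 23.1%. All 13 values were negative in PC3, with a median of −0.25, and 10 were negative in VCaP, where the median was −0.07 and 3 genes were called lower (PLRG1, CRNKL1 and CWC15; 23.1%, against 23.3% of all genes) and 1 higher (ISY1; 7.69%, against 22.5%). PRPF19, the ubiquitin ligase that gives the complex its name (ENSG00000110107.8_3, chromosome 11, 60658202 to 60674060, minus strand), read 184, 211 and 193 CPM in PC3 NSI and 157, 180.2 and 156 in siFOXA1. These groups did not overlap, but by a small margin, and the difference did not pass (log2 fold change −0.25, SE 0.10, adjusted p = 0.0814). It passed with the replicate block (log2 fold change −0.25, adjusted p = 0.00735), without siFOXA1 replicate 2 (adjusted p = 0.0485) and without replicate 2 of both groups (adjusted p = 0.0212). In VCaP PRPF19 read 107, 98.3 and 107 CPM in NSI and 101, 105 and 106 in siFOXA1, with a log2 fold change of −0.0026 (95% confidence interval −0.14 to 0.14).

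BCAS2, a small coiled-coil subunit of the PRP19 core (ENSG00000116752.5_2, chromosome 1, 115110178 to 115124260, minus strand), had the largest PC3 fall of the group. It read 47.2, 51.1 and 46.3 CPM in NSI and 32.8, 38.3 and 33.6 in siFOXA1, 72.4% of NSI (log2 fold change −0.47, SE 0.09, adjusted p = 0.00722), and the groups stood well apart. Without siFOXA1 replicate 1 the call was lost (log2 fold change −0.39, adjusted p = 0.0654). In VCaP it read 27.3, 27.2 and 26.8 CPM in NSI and 28.6, 25.8 and 24.7 in siFOXA1 (log2 fold change −0.04, SE 0.07, adjusted p = 0.655), with siFOXA1 libraries on both sides of the controls. BUD31, which contacts the catalytic core (ENSG00000106245.10_2, chromosome 7, 99006264 to 99017239, plus strand), read 103, 122 and 111 CPM in PC3 NSI and 81.4, 94.9 and 77.3 in siFOXA1 (log2 fold change −0.40, SE 0.11, adjusted p = 0.0235). In both PC3 groups replicate 2 was the highest library. The call was lost under library size alone and without NSI replicate 2 or 3 or siFOXA1 replicate 1 or 3 (adjusted p = 0.0601 to 0.138). On the opposite strand 42.2% of its exon length overlaps PTCD1 or PDAP1, and in the strandless PC3 counts PTCD1 fell as well (log2 fold change −0.46, SE 0.09, adjusted p = 0.00755), so reads of BUD31 and PTCD1 cannot be told apart there. In VCaP, counted by strand, BUD31 read 32.0, 31.3 and 33.3 CPM in NSI and 32.6, 33.7 and 30.4 in siFOXA1, and the 95% confidence interval of its log2 fold change ran from −0.14 to 0.14.

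PLRG1, a WD40 protein of the core, fell by like amounts in both lines, to 80.1% of NSI in PC3 (log2 fold change −0.32, SE 0.08, adjusted p = 0.017) and to 81.4% in VCaP (log2 fold change −0.30, SE 0.06, adjusted p = 0.00456). It was called in 9 of 14 alternatives in PC3 and 13 of 13 in VCaP. CDC5L, the Myb-like core subunit (log2 fold change −0.29, SE 0.08, adjusted p = 0.0286), and SNW1, a platform for other factors (log2 fold change −0.29, SE 0.08, adjusted p = 0.0299), each held their PC3 call in 6 of 14 alternatives, and neither was called in VCaP. On the opposite strand 5.39% of the SNW1 exon length overlaps C14orf156 or C14orf178, and C14orf156 also fell in the strandless PC3 counts (log2 fold change −0.51, SE 0.13, adjusted p = 0.0185). CRNKL1, a helical-repeat scaffold, fell in VCaP to 86.2% (log2 fold change −0.21, SE 0.05, adjusted p = 0.00877). CWC15 fell there to 89.0% (log2 fold change −0.17, SE 0.06, adjusted p = 0.0374) and was called in 3 of 13 alternatives. ISY1 was higher in VCaP (log2 fold change 0.21, SE 0.07, adjusted p = 0.0416), called in 3 of 13 alternatives; 23.3% of its exon length is shared on the same strand with the readthrough gene ISY1-RAB43, which was called higher in both lines (log2 fold changes 0.41 and 0.40). XAB2, SYF2 and RBM22 were called in neither line, with or without the PC3 block. AQR, the helicase of the intron-binding complex, had a PC3 log2 fold change of −0.36 (adjusted p = 0.0796, and 0.0026 with the block) and was called in 5 of 14 alternatives.

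The 6 cyclophilins were the group in which every gene was called in VCaP, 3 lower (PPIL1, PPIL3 and PPIE) and 3 higher (CWC27, PPWD1 and PPIL2). The background was 23.3% and 22.5% of all genes, or 31.8% and 24.0% at or above the lowest member's level. Of the 6, only PPIL1 and PPIE were called in all 13 VCaP alternatives. PPIH, also a cyclophilin, was counted with the tri-snRNP. In PC3 2 of 6 were called lower (PPIL1 and CWC27), against 13.9% or 20.9%. With the replicate block PPIE was called as well, against 23.1% of all genes in that fit. PPIL1, which binds SNW1 and enters with the PRP19 complex (ENSG00000137168.7_2, chromosome 6, 36822603 to 36842800, minus strand), had the largest change of the 52 genes in VCaP. Its VCaP libraries read 24.1, 23.7 and 24.2 CPM in NSI and 8.57, 7.89 and 8.13 in siFOXA1, a fall to 34.2% of the control level (log2 fold change −1.55, SE 0.07, adjusted p = 3.89e-07). Replicates lay close together on both sides of that gap, and the call held in all 13 alternatives. In PC3 it read 38.4, 44.0 and 37.0 CPM in NSI and 27.5, 29.4 and 28.1 in siFOXA1, 71.2% of NSI (log2 fold change −0.49, SE 0.09, adjusted p = 0.00582). The PC3 groups did not overlap either, but without siFOXA1 replicate 1 the call was lost (log2 fold change −0.44, adjusted p = 0.0552). C6orf89, the neighbour that shares 0.173% of the PPIL1 exon length on the other strand, was called in neither line (log2 fold changes 0.06 and 0.0040), and the pseudogene PPIL1P1 read at most 0.0124 CPM on average in any group.

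CWC27, a cyclophilin that binds CWC22 (ENSG00000153015.15_3, chromosome 5, 64064757 to 64314590, plus strand), was called in opposite directions in the lines. In PC3 it read 36.5, 39.2 and 36.9 CPM in NSI and 29.1, 28.3 and 29.9 in siFOXA1, 77.5% of NSI (log2 fold change −0.37, SE 0.08, adjusted p = 0.0101), and the groups were well separated. Without siFOXA1 replicate 1 this call was lost (log2 fold change −0.34, adjusted p = 0.0785). In VCaP it was the lowest member, at 2.77, 2.89 and 1.84 CPM in NSI and 3.29, 3.42 and 3.98 in siFOXA1 (log2 fold change 0.52, SE 0.18, adjusted p = 0.038). The lowest VCaP library held 106 counts of it, NSI replicate 3 was the low control, and the VCaP call was lost without NSI replicate 1 or 3 or any 1 siFOXA1 replicate and with library size alone (adjusted p = 0.055 to 0.105).

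PPIE, part of the intron-binding complex (ENSG00000084072.16_3, chromosome 1, 40204554 to 40229586, plus strand), read 26.0, 24.8 and 27.2 CPM in VCaP NSI and 19.5, 20.3 and 20.3 in siFOXA1, 77.1% of NSI (log2 fold change −0.38, SE 0.06, adjusted p = 0.00096). In PC3 the mean was at 76.8% of NSI, from 28.8, 39.6 and 32.4 CPM to 23.2, 29.3 and 25.0. The PC3 groups overlapped, with replicate 2 high in each. The difference passed with the replicate block, with no filter, without siFOXA1 replicate 2, without replicate 2 of both groups and in the fit of all 12 libraries, and not in the other 9 alternatives (without the block: log2 fold change −0.38, SE 0.14, adjusted p = 0.0692; with it: log2 fold change −0.37, adjusted p = 0.00124). PPIL3 (ENSG00000240344.8_2, chromosome 2, 201735630 to 201754026, minus strand) was low in VCaP, at 6.28, 5.38 and 5.77 CPM in NSI and 4.94, 3.50 and 4.59 in siFOXA1 (log2 fold change −0.42, SE 0.14, adjusted p = 0.0325). The groups did not overlap, siFOXA1 replicate 2 was the lowest library, and the call was lost without NSI replicate 1 or 3 or siFOXA1 replicate 2 (adjusted p = 0.0576 to 0.106). In PC3 PPIL3 read 16.5, 18.7 and 16.9 CPM in NSI and 16.0, 18.6 and 16.2 in siFOXA1, which overlap throughout.

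PPWD1, a cyclophilin with WD40 repeats (ENSG00000113593.11_2, chromosome 5, 64859066 to 64883376, plus strand), was higher in VCaP. It read 15.5, 17.1 and 14.5 CPM in NSI and 19.2, 18.5 and 18.3 in siFOXA1 (log2 fold change 0.25, SE 0.08, adjusted p = 0.0252), every siFOXA1 library above every control, and the call was lost without NSI replicate 1 or 3 or siFOXA1 replicate 1 or 2, by DESeq2 and with library size alone (adjusted p = 0.0601 to 0.0952). The PC3 libraries of PPWD1 overlapped, at 15.2, 16.9 and 15.6 CPM in NSI and 13.8, 15.2 and 13.4 in siFOXA1 (log2 fold change −0.17, SE 0.09, adjusted p = 0.222). PPIL2, a cyclophilin with a U-box, was the smallest of the VCaP rises (log2 fold change 0.19, SE 0.07, adjusted p = 0.0403) and held its call in 4 of 13 alternatives.

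The promoters of PPIL1 and CWC27 are set side by side because they were the cyclophilins that moved furthest down and up in VCaP. Both are RefSeq windows on GRCh38.p14, PPIL1 at chr6:36874754-36875053, minus strand, and CWC27 at chr5:64768668-64768967, plus strand, written 5′ to 3′ on the gene's strand. Capitals mark the ETS motif ACTTCCGG (here on the reverse strand, CCGGAAGT) in PPIL1, which has 2 matches, and the forkhead motif TGTTTAC (here GTAAACA) in CWC27:
PPIL1 promoter: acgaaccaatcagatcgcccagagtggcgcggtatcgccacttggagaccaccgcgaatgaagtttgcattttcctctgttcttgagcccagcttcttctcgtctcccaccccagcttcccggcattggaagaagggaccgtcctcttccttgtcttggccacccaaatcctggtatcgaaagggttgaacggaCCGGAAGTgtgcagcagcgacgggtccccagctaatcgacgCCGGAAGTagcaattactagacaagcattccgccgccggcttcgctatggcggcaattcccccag
CWC27 promoter: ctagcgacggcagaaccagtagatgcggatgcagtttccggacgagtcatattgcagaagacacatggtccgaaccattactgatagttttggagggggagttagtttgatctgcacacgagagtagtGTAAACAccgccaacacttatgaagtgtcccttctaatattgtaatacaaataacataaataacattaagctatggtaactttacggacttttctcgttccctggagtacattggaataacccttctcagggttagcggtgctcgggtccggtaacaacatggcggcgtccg

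RefSeq windows were found for 47 of the 52 genes and searched on both strands. ACTTCCGG was present in 13 of the 47 members (27.7%), against 4.44% of all 27305 windows and 6.19% of the 15843 windows of coding genes. The 13 were ACIN1, AQR, BUD31, DHX8, ISY1, MAGOH, PPIL1, PPIL2, PRPF6, RBM8A, SART1, SLU7 and SYF2. Of these 13, 2 were called lower in PC3, against 13.9% of all genes tested. In VCaP 3 of the 13 were called lower and 2 higher, against 23.3% and 22.5%. A link between the motif and the response was not tested. The forkhead motif TGTTTAC was present in CWC27, DHX8 and SLU7 (6.38%, against 3.41% of all windows). A variant, TGTTTGC, was present in ACIN1 (2.13%, against 3.87%). Another variant, TATTTAC, was present in RBM22 and SLU7 (4.26%, against 2.77%). At least 1 of these was present in 5 members (10.6%), against 9.62% of all windows and 7.52% of the coding ones. CACGTG was present in 3 (6.38%: EFTUD2, EIF4A3 and PPIH), against 7.44% and 8.88%. The median share of G and C was 58% over the members and 58.3% over all windows. These are matches of letters in a window and say nothing of binding.

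Of the 6 DEAH helicases and second-step factors, 1 was called lower in PC3 (16.7%, against 13.9% of all genes tested, or 20.9% at or above the lowest member's level). In VCaP 2 were called lower (33.3%, against 23.3% or 31.8%), so both shares were near the background. With the replicate block 2 were called lower in PC3, against 23.1%. DHX15, the helicase that takes apart the spent spliceosome, was the only helicase or step factor called in both lines, against 6.48% of genes called lower in both. It fell to 79.3% of NSI in PC3 (log2 fold change −0.34, SE 0.09, adjusted p = 0.0226) and to 84.1% in VCaP (log2 fold change −0.25, SE 0.06, adjusted p = 0.00625), with no overlap in either line, and was called in 8 of 14 and 13 of 13 alternatives. DHX38, which acts between the catalytic steps, fell in VCaP to 86.0% (log2 fold change −0.22, SE 0.06, adjusted p = 0.01). In PC3 all 3 of its siFOXA1 libraries were below NSI without passing (log2 fold change −0.14, SE 0.08, adjusted p = 0.222). DHX16, which primes the first step, DHX8, which releases the mRNA, and PRPF18 and SLU7, which act in the second step, were called in neither line, except SLU7 in PC3 with the replicate block (adjusted p = 0.016). Their log2 fold changes lay between −0.22 and 0.01 in PC3 and between −0.03 and 0.15 in VCaP.

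Of the 10 exon junction genes, 3 were called lower in VCaP (EIF4A3, RBM8A and RNPS1) and 1 higher (CWC22), against 23.3% and 22.5% of all genes, or 31.8% and 24.0% at or above the lowest member's level, so the share of lower calls was near the background. PC3 had 2 of 10 lower (RNPS1 and CWC22), against 13.9% or 20.9%, and 4 with the replicate block, which added RBM8A and EIF4A3, against 23.1%. EIF4A3, the RNA clamp at the centre of the complex (ENSG00000141543.9_3, chromosome 17, 78109013 to 78120982, minus strand), read 40.5, 40.6 and 44.3 CPM in VCaP NSI and 31.9, 31.6 and 34.9 in siFOXA1, 78.5% of NSI (log2 fold change −0.35, SE 0.06, adjusted p = 0.00178). In PC3 it read 91.9, 94.0 and 93.4 and 73.8, 86.8 and 69.3 CPM. Neither line had overlapping groups; siFOXA1 replicate 2 was the high treated library in PC3, where the difference did not pass (log2 fold change −0.28, SE 0.10, adjusted p = 0.0663). It passed with the block (log2 fold change −0.29, adjusted p = 0.0112), without siFOXA1 replicate 2 (adjusted p = 0.0198), without replicate 2 of both groups (adjusted p = 0.00308) and in the fit of all 12 libraries (adjusted p = 0.0476). RBM8A, the Y14 subunit, fell in VCaP to 81.1% (log2 fold change −0.30, SE 0.06, adjusted p = 0.00246). Its partner MAGOH was called in neither line (−0.14 in PC3 and 0.04 in VCaP), nor was CASC3, the last core subunit (−0.18 and 0.04).

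RNPS1, an outer subunit shared by the ASAP and PSAP complexes (ENSG00000205937.11_4, chromosome 16, 2303117 to 2318413, minus strand), fell in both lines. Its PC3 libraries read 106, 112 and 105 CPM in NSI and 75.9, 79.4 and 71.3 in siFOXA1, the largest PC3 fall of the 52, to 70.3% of NSI (log2 fold change −0.51, SE 0.08, adjusted p = 0.00286). In VCaP they read 55.8, 53.8 and 62.4 and 47.9, 49.0 and 48.0 CPM, 84.3% of NSI (log2 fold change −0.25, SE 0.07, adjusted p = 0.0124). No siFOXA1 library reached the lowest control in either line. Opposite-strand genes cover 21.2% of the RNPS1 exon length, and AC009065.1 among them also fell in the strandless PC3 counts (log2 fold change −0.72, SE 0.15, adjusted p = 0.0085), so the reads of the pair cannot be told apart in PC3. CWC22, which loads EIF4A3 onto the spliceosome and binds CWC27 (ENSG00000163510.13_2, chromosome 2, 180809603 to 180871780, minus strand), read 43.5, 41.4 and 44.7 CPM in PC3 NSI and 36.3, 34.9 and 35.6 in siFOXA1 (log2 fold change −0.28, SE 0.08, adjusted p = 0.0294). It read 26.6, 24.8 and 23.8 CPM in VCaP NSI and 28.8, 30.9 and 28.3 in siFOXA1 (log2 fold change 0.23, SE 0.07, adjusted p = 0.0199). Its siFOXA1 libraries were thus all below NSI in PC3 and all above in VCaP, as for CWC27, and its calls held in 6 of 14 alternatives in PC3 and 8 of 13 in VCaP. SRRM1, SRRM2, ACIN1 and PNN, of which SRRM1 and SRRM2 are SR-related matrix proteins and ACIN1 and PNN bind RNPS1, were called in neither line.

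**Figure D2:**
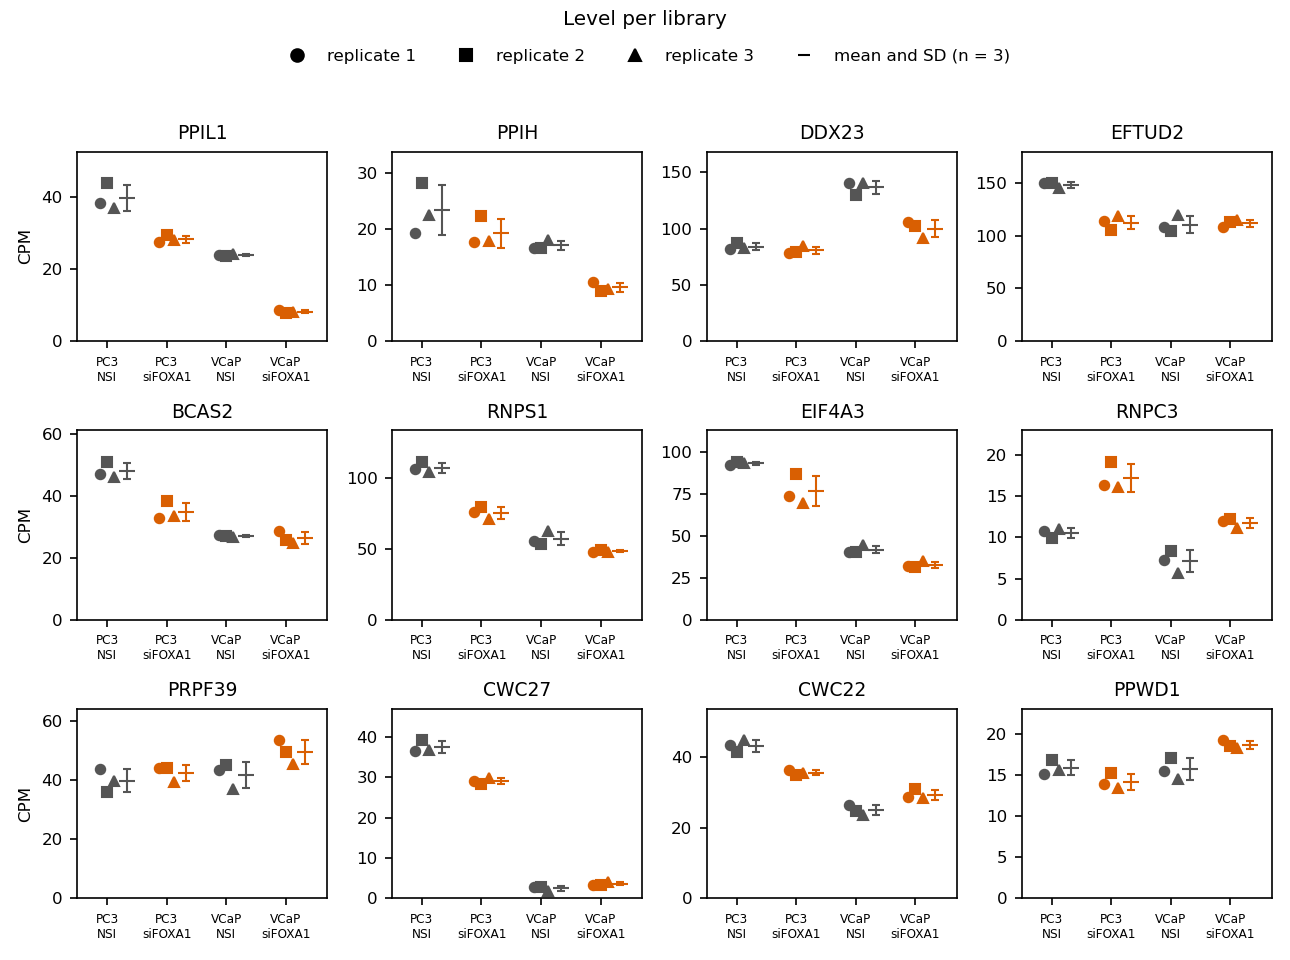
CPM of 12 of the genes in each of the 12 libraries, with the line and siRNA on the horizontal axis, circles, squares and triangles for replicates 1, 2 and 3, and dashes with bars for the mean and SD of 3 libraries; each panel starts at 0. PPIL1 and PPIH show the deep VCaP fall, RNPC3 is higher after siFOXA1 in both lines, and CWC27 and CWC22 are lower in PC3 and higher in VCaP.

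Across the lines, 4 genes were called lower in both (PLRG1, PPIL1, DHX15 and RNPS1; 6.48% of all genes tested in both lines), RNPC3 was called higher in both, and CWC27 and CWC22 were called lower in PC3 and higher in VCaP (2.41%). Calls in PC3 alone numbered 6, all lower (EFTUD2, PRPF38B, CDC5L, BCAS2, SNW1 and BUD31), calls in VCaP alone 15, and 24 genes were called in neither line. With the replicate block in PC3, 9 genes were called lower in both lines, with PPIH, CRNKL1, PPIE, RBM8A and EIF4A3 in addition (10.4% of all genes by that rule), and 16 were called in neither. The shares of all genes called in a single line or in neither were not computed, with or without the block. The counts of members called so therefore have no background. The log2 fold change was negative in both lines for 31 genes, and for 9 every siFOXA1 library was below every NSI library in both. In single lines, 22.7% of all genes tested lay so in PC3 and 28.0% in VCaP. The shares of all genes over both lines were not computed, so these 2 counts have no background. Over the 52 genes, which share libraries and depth, Spearman's rho between the PC3 and VCaP log2 fold changes was 0.21 and Pearson's r 0.43.

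A difference between the lines was tested as the interaction term, in which a negative value means a lower log2 fold change in VCaP than in PC3, from the 12 libraries together. It was more negative in VCaP for 3 of the 52 genes (PPIL1, PPIH and DDX23) and more positive for 7 (CWC27, CWC22, BCAS2, EFTUD2, PPWD1, PRPF38B and BUD31). The members' shares were 5.77% and 13.5%, against 11.1% and 11.1% of the 30450 genes tested. The more negative share lay below that of all genes and the more positive share near it. PPIL1 had the largest difference, −1.07 (SE 0.12, adjusted p = 8.25e-06), with a 95% confidence interval of −1.32 to −0.82. For CWC27 it was 0.87 (SE 0.18, adjusted p = 0.00249) and for its binding partner CWC22 0.49 (SE 0.11, adjusted p = 0.00328). These 3 genes were called in all 19 alternatives. DDX23 differed by −0.41 (SE 0.11, adjusted p = 0.0172), a call lost only without VCaP siFOXA1 replicate 3 (adjusted p = 0.0516). BCAS2 differed by 0.41 (SE 0.12, adjusted p = 0.0189) and EFTUD2 by 0.40 (SE 0.12, adjusted p = 0.0238), each a PC3 fall with no called VCaP counterpart, and they held in 13 of 19 and 7 of 19 alternatives. The PPIH call was lost on leaving out any 1 VCaP NSI replicate, or VCaP siFOXA1 replicate 2 or 3 (adjusted p = 0.0547 to 0.0913). PPWD1, BUD31 and PRPF38B held in 9 of 19, 8 of 19 and 7 of 19 alternatives, with adjusted p = 0.152, 0.141 and 0.16 under library size alone. The more positive calls fell to 2 under library size alone (beside 4 more negative), to 2 with no filter on low counts, and to between 2 and 6 when any 1 library was left out, with 2 when it was replicate 1 of PC3 siFOXA1 or of VCaP NSI. The PC3 and VCaP counts of these genes differ in the use of strand, which bears on BUD31 as given above.

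**Figure D3:**
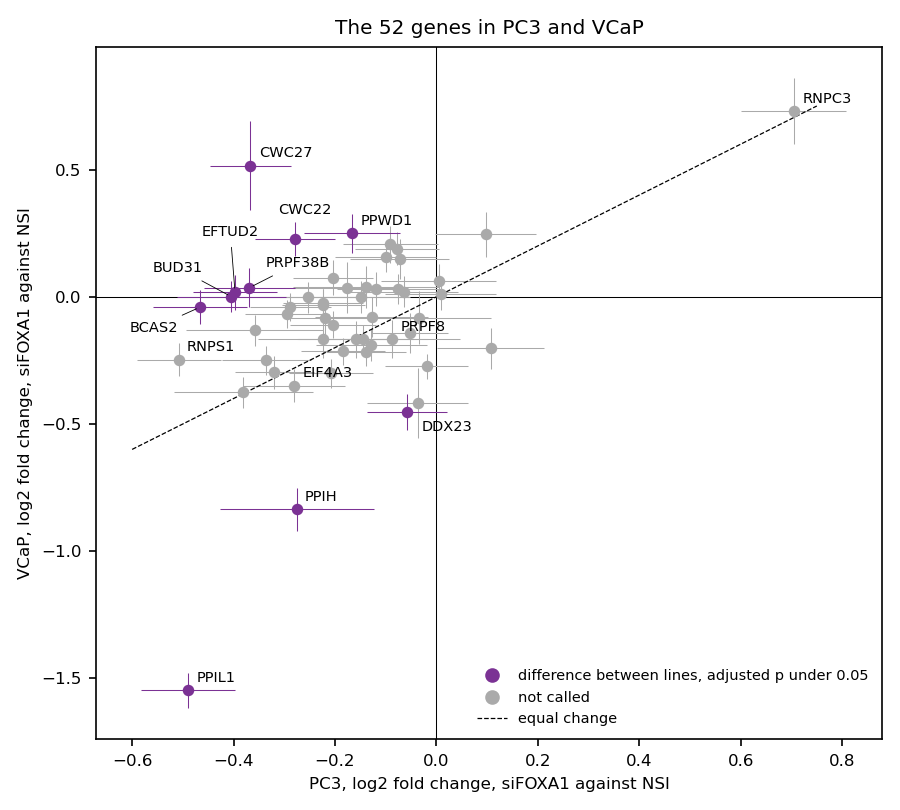
Log2 fold change in PC3 (horizontal) against VCaP (vertical) for the 52 genes, with bars of 1 standard error, the dashed line of equal change, and purple for genes whose effect differed between the lines at an adjusted p under 0.05. PPIL1, PPIH and DDX23 lie below the line, CWC27 and CWC22 at the upper left, and RNPC3 on the line at the upper right.

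The members differed widely in level per exon length, here TPM, the deposited counts of NSI libraries divided by exon length and scaled to a common total. In PC3 PRPF19 was highest at 160.4 ± 11.6 TPM (SD, n = 3), followed by BUD31 (143 ± 12.5) and PNN (123 ± 2.14), and RNPC3 was lowest at 4.77 ± 0.355. In VCaP PRPF8 was highest at 68.2 ± 4.98 TPM, followed by DHX15 (54.2 ± 5.73) and PRPF19 (40.6 ± 2.47), and CWC27 was lowest at 0.701 ± 0.217, below RNPC3 at 1.55 ± 0.436. CWC27 ranked 40 of 52 in PC3 and 52 of 52 in VCaP. The kits sample different RNA, so the TPM values themselves were not compared between lines; the ranks had a Spearman's rho of 0.66 over the 52 genes. The lowest count of a member in any library was 832 in PC3 and 106 in VCaP.

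**Figure D4:**
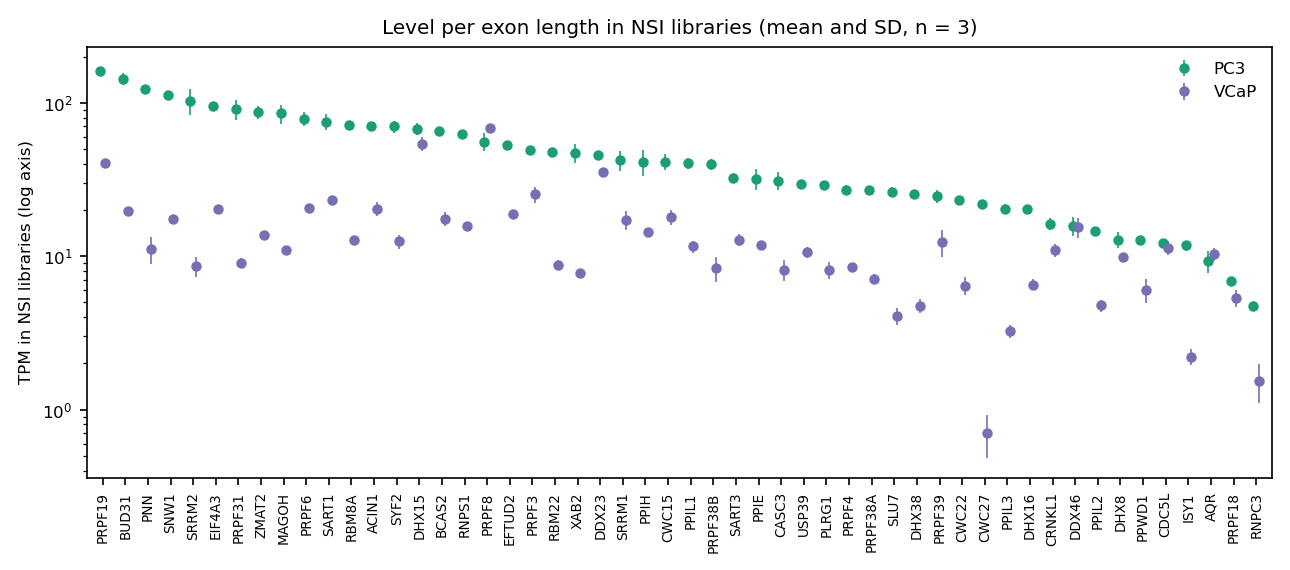
TPM of the 52 genes in NSI libraries of PC3 (green) and VCaP (violet) on a log axis, ordered by the PC3 level, as mean and SD of 3 libraries. PRPF19 leads in PC3 and PRPF8 in VCaP, RNPC3 is at the low end in both, and CWC27 drops to the lowest VCaP point.

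A list of 53 other spliceosome genes gave similar counts, with medians of −0.16 in PC3 and −0.04 in VCaP. In PC3 13 were called lower (24.5%, against 13.9% of all genes tested, or 20.9% at or above the lowest member's level). None was called higher there, against 13.9% or 11.9%. In VCaP 15 were called lower (28.3%, against 23.3% or 31.8%) and 9 higher (17.0%, against 22.5% or 24.0%). The largest PC3 falls were SNRNP40, a WD40 protein of U5 (log2 fold change −0.62, SE 0.08, adjusted p = 0.000837), ALYREF, an mRNA export adaptor (log2 fold change −0.55, SE 0.13, adjusted p = 0.0141), and BUD13, a RES complex subunit (log2 fold change −0.52, SE 0.09, adjusted p = 0.00428). The ALYREF call in PC3 was lost without siFOXA1 replicate 1 or 3 (adjusted p = 0.0961 and 0.0507). In VCaP ALYREF fell furthest, to 49.6% of NSI (log2 fold change −1.01, SE 0.07, adjusted p = 4.2e-06). SNU13, which binds U4 with PRPF31, fell to 60.7% (log2 fold change −0.72, SE 0.07, adjusted p = 3.12e-05), and SNRNP200, the helicase that unwinds U4 from U6 beside PRPF8, to 68.6% (log2 fold change −0.54, SE 0.07, adjusted p = 0.000195). The largest VCaP rises were FAM50A (log2 fold change 0.58, SE 0.18, adjusted p = 0.023), WBP4 (log2 fold change 0.47, SE 0.07, adjusted p = 0.000721) and THOC2, a subunit of the THO export complex (log2 fold change 0.44, SE 0.08, adjusted p = 0.00143). FAM50A read 16.7, 16.1 and 26.2 CPM in VCaP siFOXA1, and its call was lost without NSI replicate 1 or 3 (adjusted p = 0.0831 and 0.0625).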

How the data were processed

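The deposited tables hold expected counts per gene, which the authors obtained with featureCounts 2.0.0, per the file headers, on the exons of the GENCODE v28 basic annotation lifted to GRCh37, counting fragments with both ends mapped and dividing fragments that map or overlap more than once. STAR 2.7.3a is named in the submitters' processing notes. Strand was ignored in PC3 and reverse in VCaP, per the file headers. The deposited values are not normalized. Between 54.1% and 70.7% of nonzero values were not whole, so all were rounded.

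edgeR 4.0.16 in R 4.3.3 was used with TMM factors, filterByExpr at its default and two-sided quasi-likelihood tests, on 6 libraries per line and on all 12 for the interaction. Benjamini-Hochberg adjustment covered every gene in the fit, with calls made at an adjusted p under 0.05. SE is the size of the log2 fold change over the square root of F. Biological coefficients of variation were 14.9% (PC3) and 9.89% (VCaP). The fits were tested on simulated counts with the same spread for every gene, below that of the PC3 fit, and no pairing of replicates. That test therefore does not cover the paired PC3 libraries. Motifs were searched in RefSeq promoter windows (GRCh38.p14).

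Replicates within a group differed by a chi-square per degree of freedom of 11.0 to 158.4, so none was a copy. The pairing of same-numbered libraries was checked by correlating their deviations from the group means over genes. In PC3 r was 0.60, 0.68 and 0.27, all above 0.1, against means of −0.13, −0.52 and −0.023 with other numbers. In VCaP r was 0.098, 0.0060 and 0.41, against −0.00056, 0.029 and −0.27. Not all VCaP values were above 0.1, which does not show that its libraries are unpaired. Numbers are those of the sample titles; some deposited tables are named with other numbers, but same-numbered libraries of the groups match under either. The numbers were therefore treated as pairs in PC3 only, and the fit with the replicate block is given where it changes a call there.

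The members and lists were chosen with earlier results of these data known. Values per library are given for the 6 largest called falls and 4 largest called rises of each line, the 6 smallest adjusted p of the interaction, and PRPF8, PRPF19 and EIF4A3; others are given by counts or by name, and of the 53 other spliceosome genes the 3 largest called falls and rises. Alternatives were DESeq2 1.42.0, its size factors, library size alone, upper-quartile factors, no filter, the replicate block, a fit of all 12 libraries, and each library left out.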

Additional observations from a re-analysis of the deposited data

Results flagged for a closer look

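The response to siFOXA1 differed between the lines, by edgeR's test of the interaction over 12 libraries, for 10 of the 52 genes. The VCaP effect minus the PC3 effect was more negative for PPIL1 (−1.07), PPIH (−0.57) and DDX23 (−0.41). It was more positive for CWC27 (0.87), CWC22 (0.49), BCAS2 (0.41), EFTUD2 (0.40), PPWD1 (0.40), PRPF38B (0.39) and BUD31 (0.39), all on the log2 scale. PPIL1, CWC27 and CWC22 held in all 19 alternatives, DDX23 in 18, PPIH in 14, BCAS2 in 13, PPWD1 in 9, BUD31 in 8, and EFTUD2 and PRPF38B in 7. The members' shares were 5.77% more negative, below the 11.1% of all genes tested, and 13.5% more positive, near the 11.1% of all genes. CWC27 and CWC22, whose products bind each other, were lower in all 3 PC3 siFOXA1 libraries and higher in all 3 VCaP siFOXA1 libraries. Of all genes tested in both lines, 2.41% were called lower in PC3 and higher in VCaP. Within each line these calls were lost in some alternatives. The largest edgeR adjusted p was 0.0785 in PC3 and 0.105 in VCaP for CWC27, and 0.126 and 0.0916 for CWC22. The lowest VCaP library held 106 counts of CWC27. Line, siRNA dose, medium, library kit and use of strand cannot be told apart in this difference.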

How the results depend on the processing

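In PC3 the members called lower numbered 12; they numbered 6 with library size alone, 25 with the replicate block, 20 without replicate 2 of both groups, and 1 to 13 when 1 library was left out. The PC3 median log2 fold change of −0.17 was −0.081 with library size alone, −0.11 with upper-quartile factors and −0.21 to −0.13 with 1 library left out. In VCaP the members called higher numbered 7; they numbered 2 by DESeq2, 1 with library size alone, 4 in the fit of all 12 libraries and 1 to 5 with 1 library left out. The VCaP median of −0.05 was −0.0702 by DESeq2, −0.068 with library size alone, −0.066 with no filter, −0.00500 with upper-quartile factors, −0.027 in the fit of all 12 libraries and −0.076 to −0.0302 with 1 library left out. For the difference between lines, the more positive calls numbered 7; they numbered 2 with library size alone, 2 with no filter and 2 to 6 with 1 library left out. The more negative calls, 3, numbered 5 with the replicate block and 1 to 4 with 1 library left out. The block kept each of these calls and added SART3 and PPIL3, and PRPF3 and ISY1, to the difference between lines (14.0% and 15.0% of all genes). It also added PNN to the VCaP falls, although VCaP numbers were not treated as pairs. FOXA1 kept its direction and call under all alternatives run.

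Values that changed sign all belonged to genes not called in that line. In PC3 20 of the 52 members changed sign in at least 1 alternative, SRRM2 in 7 and SART3 in 6, and in VCaP 14 did. Values follow for the genes given per library above. In PC3 DDX23 read 0.031 with library size alone, 0.0033 with upper-quartile factors, 0.0297 without replicate 2 of both groups and −0.088 to 0.014 with 1 library left out. PPIL3 there read 0.052 with library size alone, 0.023 with upper-quartile factors, 0.0044 in the fit of all 12 libraries and −0.11 to 0.064 with 1 library left out, and PRPF8 0.0056 with library size alone and −0.16 to 0.0204 with 1 library left out. In VCaP BUD31 read −0.016 by DESeq2, −0.0069 with its size factors, −0.012 with library size alone, −0.012 with no filter, −0.00059 with the replicate block and −0.0303 to 0.0396 with 1 library left out. With upper-quartile factors BCAS2 there read 0.0079 and PRPF19 0.046, and PRPF19 read 0.024 in the fit of all 12 libraries. With 1 library left out the VCaP values ran over −0.11 to 0.0042 for BCAS2, −0.052 to 0.015 for PRPF19, −0.032 to 0.073 for EFTUD2 and −0.025 to 0.10 for PRPF38B. The cause of these changes was not tested. Depth limits CWC27 in VCaP most, with 106 counts in its lowest library.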

Other observations

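Among the 53 other spliceosome genes, 7 differed between the lines and are named here after their values were seen, against 11.1% of all genes tested in each direction. MAGOHB, the paralog of MAGOH, had the most negative difference, −0.67: it read 9.96 ± 1.71 CPM in PC3 NSI and 11.3 ± 1.15 in siFOXA1 (log2 fold change 0.18, SE 0.14, adjusted p = 0.384), and 20.1 ± 0.992 CPM in VCaP NSI and 14.4 ± 1.17 in siFOXA1 (log2 fold change −0.48, SE 0.08, adjusted p = 0.00099). MAGOH itself was called in neither line. ALYREF also differed towards VCaP (−0.48). FAM50A (0.72), THOC2 (0.61), UPF3A (0.49), CDC40 (0.46) and CWC25 (0.46) differed in the other direction.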
